A study of Mus musculus with 6 samples.

Results

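The genes described here encode the cytosolic HSP70 and HSP90 chaperones of the testis. They are the 10 rows of the deposited table named Hspa1a, Hspa1b, Hspa1l, Hspa2, Hspa4, Hspa4l, Hspa8, Hsp90aa1, Hsp90ab1 and Hsph1, chosen by gene name from 38715 genes. The study measured messenger RNA of whole mouse testis in 6 libraries, 3 titled Control and 3 titled Middle. By the design text a control was set against exposure to MES, which the series title places in early life, and Middle is taken here as the exposed group since no further group name occurs. The sources used here do not give the meaning of MES, its dose, or the strain and age of the mice. The labels do not tie libraries to animals, and p-values here therefore measure the spread between these libraries alone, which may be technical. The question put to these genes was whether their levels differed between Middle and Control testes, and whether stress-inducible and germ cell chaperones differed in the same way.

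HSP70 proteins bind unfolded stretches of other proteins in a cycle driven by ATP, and HSP90 proteins act on partly folded clients such as kinases and steroid receptors. Their genes come in versions with different uses. Hspa1a and Hspa1b are induced by heat and other stress through the heat shock factor HSF1, while Hspa8 and Hsp90ab1 are expressed constitutively in most cells. The testis adds its own versions: Hspa2 is known for its role in meiosis of male germ cells, Hspa1l is expressed in spermatids, and Hspa4l is an HSP110 relative abundant in germ cells. Hsp90aa1 is stress-inducible in many cells and is also abundant in male germ cells. By these roles the members were grouped as 4 stress-inducible (Hspa1a, Hspa1b, Hsph1, Hsp90aa1), 3 germ cell (Hspa1l, Hspa2, Hspa4l) and 3 constitutive members (Hspa8, Hspa4, Hsp90ab1).

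The upstream sequences of 4 members are shown because they set the stress-inducible copies beside the germ cell genes. RefSeq (build GRCm38.p6) gave upstream windows for 7 of the 10 members. Each line holds the 250 bases before the start site, 5′ to 3′ on the gene's strand, with the core of the heat shock element, the binding sequence of HSF1, in capitals. The windows are chr17:34972157-34972406 (minus strand) for Hspa1a, chr17:34959239-34959488 (minus) for Hspa1b, chr17:34972453-34972702 (plus) for Hspa1l and chr12:76404120-76404369 (plus) for Hspa2.
Hspa1a: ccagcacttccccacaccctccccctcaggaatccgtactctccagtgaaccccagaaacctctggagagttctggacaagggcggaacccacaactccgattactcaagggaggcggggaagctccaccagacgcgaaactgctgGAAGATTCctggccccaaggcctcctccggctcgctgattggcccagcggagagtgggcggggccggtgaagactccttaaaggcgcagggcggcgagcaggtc
Hspa1b: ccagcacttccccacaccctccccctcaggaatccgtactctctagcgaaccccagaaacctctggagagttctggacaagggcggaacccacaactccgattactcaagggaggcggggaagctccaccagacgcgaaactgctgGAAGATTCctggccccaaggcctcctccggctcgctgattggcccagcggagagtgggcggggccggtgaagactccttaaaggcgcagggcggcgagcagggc
Hspa1l: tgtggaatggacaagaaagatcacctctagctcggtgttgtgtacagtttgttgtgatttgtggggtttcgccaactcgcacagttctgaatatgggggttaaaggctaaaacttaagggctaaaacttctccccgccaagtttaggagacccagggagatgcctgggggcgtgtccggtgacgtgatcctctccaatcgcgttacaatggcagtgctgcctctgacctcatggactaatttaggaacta
Hspa2: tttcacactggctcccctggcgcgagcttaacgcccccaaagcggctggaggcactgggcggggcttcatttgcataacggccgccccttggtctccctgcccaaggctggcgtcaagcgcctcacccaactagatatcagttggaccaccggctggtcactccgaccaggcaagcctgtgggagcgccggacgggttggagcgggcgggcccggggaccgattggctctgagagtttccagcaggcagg

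The windows of Hspa1a and Hspa1b differed at 3 of 250 bases, and both held the core GAANNTTC starting 104 bases before the start site. Hspa1l, whose window faces that of Hspa1a with 46 bases between them, and Hspa2 held neither GAANNTTC nor the other core form, TTCNNGAA. Both forms read the same on either strand. Of the 7 members with a window, 3 held a core: Hspa1a, Hspa1b and Hsph1, where TTCNNGAA began 33 bases before the start site in the window of its first listed start. Hspa4 and Hspa4l held none. One or other core was found in 12.8% of the 32851 upstream windows of that length, and a longer form, either core followed by NN and a further GAA or TTC unit in alternation, in 0.466%, with no member window among them. A match is a description of letters and not evidence of binding, and the absence of one says nothing about the factor.

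Libraries held 38820385 to 58389391 reads summed over genes, recovered from the RPKM values as described under processing. All 10 members passed the filter on low values. They took 0.79% to 0.92% of the reads of a library, between 273 reads for Hspa1b and 200877 for Hsp90aa1 in single libraries. Middle replicate 1 stood apart from the other libraries: the rank correlation of its deviations with transcript GC content was 0.446, against -0.294 to 0.028 in the other 5. The groups did not overlap in this correlation, so a GC trend and the group cannot be told apart. Markers of the testis were in place in every library, with 10 elongating spermatid markers summing to 28291 to 33261 RPKM, 10 spermatocyte markers to 2082 to 2171 and 10 Sertoli cell markers to 214 to 241. In whole testis, fewer cells of a type and less RNA per cell cannot be told apart.

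The members spanned a range from about 2 to over 800 RPKM, and their order was nearly the same in both groups. RPKM is a read number scaled to gene length and to the reads of the library, so these are levels per length. In Control the order from the top was Hsp90aa1 (844 ± 59.5), Hspa2 (512 ± 13.0), Hspa1l (403 ± 32.5), Hsp90ab1 (206 ± 14.3), Hspa4l (132 ± 3.56), Hspa4 (114 ± 4.01), Hspa8 (96.8 ± 3.46), Hsph1 (12.8 ± 0.79), Hspa1a (2.44 ± 0.31) and Hspa1b (2.35 ± 0.20), each as mean ± SD with n = 3. Every step down this order was free of overlap between Control libraries except the last, from Hspa1a to Hspa1b. In Middle, Hspa8 moved above Hspa4 by its mean, and Hspa4l, Hspa8 and Hspa4 overlapped with their neighbours. The length used for each gene covers all its exons together, 11501 bases for Hspa4l and 7266 for Hsph1, so genes with long or alternative exons have lower values than a single transcript would give.

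**Figure D1:**
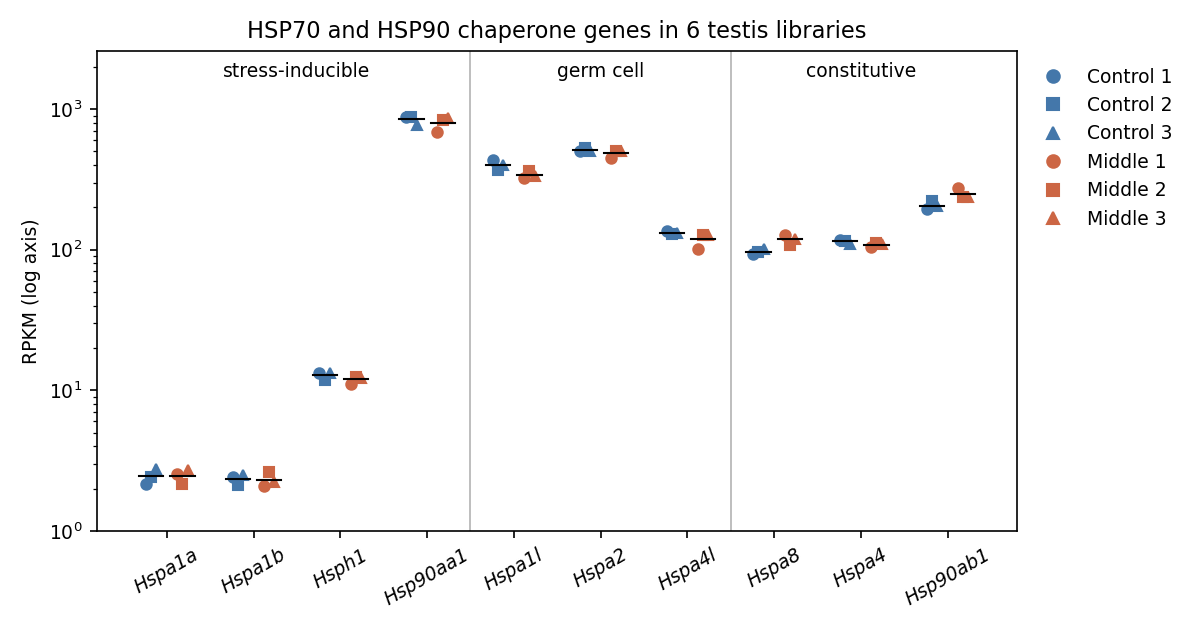
Levels of the 10 genes in RPKM on a log axis, one point per library, with Control in blue, Middle in orange, marker shapes for replicates 1 to 3 and black bars for group means. Hspa1a and Hspa1b lie near 2 RPKM in every library while Hsp90aa1 lies between 690 and 882, and the Middle points of Hspa8 and Hsp90ab1 lie above all Control points.

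Between Middle and Control, Hspa8 and Hsp90ab1 were the members with the largest differences upward and Hspa1l the one with the largest downward, and none of the 10 passed the test. The test was limma on log2(RPKM + 1) over all 15040 genes that passed the filter, with p-values adjusted over all of them by Benjamini-Hochberg. Of the members, 0 of 10 had an adjusted p under 0.05, where 0.0532% of all tested genes did (0.00665% higher and 0.0465% lower in Middle). An unadjusted p under 0.05 was reached by 3 of 10 members (Hspa8, Hsp90ab1 and Hspa1l), where 20.7% of all tested genes reached it (11.7% higher and 9.02% lower). Without Control replicate 1 it was reached by 2 members, with Hspa1l no longer among them, and by 9.58% of all tested genes. By limma-voom on the recovered reads, 0 of 10 had an adjusted p under 0.05. Control and Middle libraries held separate ranges for 4 of 10 members, where this was so for 29.3% of all tested genes. The members' median log2 fold change was -0.08, with 3 above 0 and 7 below, and that of all tested genes was 0.03 with 55.9% above 0.

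**Figure D2:**
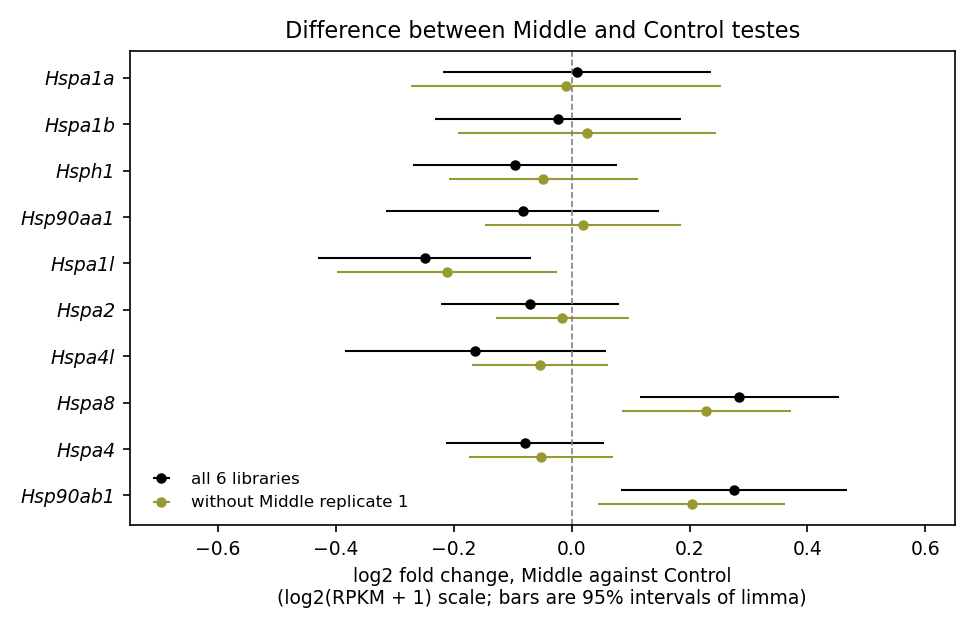
Log2 fold change of each member, Middle against Control, with 95% intervals from limma, for all 6 libraries (black) and without Middle replicate 1 (olive). The intervals of Hspa8 and Hsp90ab1 lie above 0 and that of Hspa1l below 0 in both fits, while those of the other 7 cross 0, and none of the 10 passed after adjustment.

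The stress-inducible HSP70 genes were low in every library and showed no consistent difference. Hspa1a (chromosome 17, 35188166 to 35191132, GRCm39, minus strand), a gene of a single exon, was at 2.14, 2.43 and 2.76 RPKM in Control replicates 1 to 3 and at 2.56, 2.15 and 2.70 in Middle replicates 1 to 3. Hspa1b (chromosome 17, 35175412 to 35178214, minus strand), also of 1 exon, was at 2.43, 2.13 and 2.51 in Control and at 2.08, 2.62 and 2.21 in Middle. For both genes the 2 groups covered the same range, and the library that was lowest for Hspa1a in each group was not the lowest for Hspa1b.

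The log2 fold change of Hspa1a was 0.01 with a 95% interval of -0.22 to 0.24 (adjusted p = 0.962, limma), and that of Hspa1b was -0.02 with -0.23 to 0.19 (adjusted p = 0.888, limma). The sign of Hspa1a turned when Middle replicate 1 or 3 or Control replicate 1 was left out (lowest -0.05), and that of Hspa1b without Control replicate 3 or Middle replicate 1 (highest 0.03). These values rest on 273 to 452 reads per gene and library. The transcripts of the genes matched at 99.1% over 2200 bases, so the split of reads between them is uncertain, and their sum is safer. Their summed level was 4.57, 4.56 and 5.27 RPKM in Control and 4.63, 4.77 and 4.91 in Middle, all 3 Middle values within the Control range. An antisense gene, Gm20481, lies wholly within the exon of Hspa1a and held 88 to 132 reads per library, which cannot be told apart from reads of Hspa1a.

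Hsph1 (chromosome 5, 149537752 to 149559841, minus strand) encodes HSP105, an HSP110 chaperone that releases nucleotide from HSP70 and is induced by stress. It was at 13.3, 11.9 and 13.3 RPKM in Control and at 11.1, 12.4 and 12.3 in Middle, so that the groups overlapped through Control replicate 2 (log2 fold change -0.10, SE 0.07, adjusted p = 0.457, limma). Without Middle replicate 1 the log2 fold change of Hsph1 was -0.05. Hsp90aa1 (chromosome 12, 110657039 to 110669162, minus strand), which encodes HSP90 alpha, was the most abundant member. It was at 882, 875 and 775 RPKM in Control and at 690, 839 and 870 in Middle. Middle replicate 1 was the lowest of all 6 libraries, and the other Middle libraries lay within the Control range. Its log2 fold change of -0.08 (95% interval -0.31 to 0.15, adjusted p = 0.634, limma) was 0.02 without Middle replicate 1.

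Of the germ cell members, Hspa1l was lower in every Middle library than in any Control library, and the differences of Hspa2 and Hspa4l were smaller. Hspa1l (chromosome 17, 35191679 to 35198261, plus strand), which lies next to Hspa1a on the opposite strand, was at 436, 371 and 403 RPKM in Control and at 321, 361 and 334 in Middle. The narrowest gap was between Middle replicate 2 and Control replicate 2. The ratio of group means was 0.84 and the log2 fold change -0.25 (SE 0.08, 95% interval -0.43 to -0.07), with an adjusted p of 0.178 (limma). Non-overlap downward was seen for 11.4% of all tested genes.

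The reads of Hspa1l cannot be told apart from those of Gm10501, an antisense gene whose exons cover 71.9% of the exon bases of Hspa1l. Gm10501 (chromosome 17, 35195875 to 35200764, minus strand) held 0.984 to 0.985 times the reads of Hspa1l in all 6 libraries. Its level was 446 ± 36.2 RPKM in Control against 375 ± 22.8 in Middle (SD, n = 3 each), with a log2 fold change of -0.25. The sources used here do not say whether counting used strand, so the value of Hspa1l may hold reads of either one. With so constant a ratio of reads, the values of Gm10501 are not taken as a measure separate from those of Hspa1l.

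Hspa2 (chromosome 12, 76450950 to 76453712, plus strand) was at 502, 526 and 506 RPKM in Control and at 451, 505 and 507 in Middle. Middle replicates 2 and 3 lay within the Control range and replicate 1 below it. Its log2 fold change was -0.07 (95% interval -0.22 to 0.08, adjusted p = 0.530, limma) and -0.02 without Middle replicate 1. Hspa4l (chromosome 3, 40699814 to 40750538, plus strand) was at 136, 129 and 132 RPKM in Control and at 101, 127 and 128 in Middle. The groups did not overlap, but Middle replicates 2 and 3 lay just below the lowest Control library. The log2 fold change of -0.16 (SE 0.10, adjusted p = 0.340, limma) was -0.05 without Middle replicate 1. Summed over the 3 germ cell members, the level was 1074, 1026 and 1041 RPKM in Control and 873, 993 and 968 in Middle, each Middle library below each Control library.

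Of the constitutive members, Hspa8 and Hsp90ab1 were higher in every Middle library than in any Control library, and Hspa4 was not. Hspa8 (chromosome 9, 40712280 to 40721383, plus strand) encodes HSC70, the HSP70 that most cells hold without stress. It was at 93.7, 96.1 and 101 RPKM in Control and at 128, 109 and 119 in Middle. The ratio of means was 1.22 and the log2 fold change 0.28 (SE 0.07, 95% interval 0.12 to 0.45, adjusted p = 0.178, limma). Its processed pseudogene Gm15459 matches the transcript at 99.7% over 1941 bases and held 11.6% as many reads, so part of the split is uncertain. With the reads of 5 such copies added, the log2 fold change of Hspa8 was 0.27.

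Hsp90ab1 (chromosome 17, 45878701 to 45884197, minus strand), which encodes HSP90 beta, was at 193, 221 and 203 RPKM in Control and at 275, 236 and 238 in Middle. Middle replicate 1 was the highest, and the lowest Middle library, replicate 2, stood above the highest Control library, replicate 2. The ratio of means was 1.21 and the log2 fold change 0.27 (SE 0.08, 95% interval 0.08 to 0.47, adjusted p = 0.178, limma). Non-overlap upward was seen for 17.9% of all tested genes. Hspa4 (chromosome 11, 53150641 to 53191284, minus strand), an HSP110 chaperone of most tissues, was at 118, 115 and 110.0 RPKM in Control and at 104, 111 and 109 in Middle. Control replicate 3 lay within the Middle range, and the log2 fold change was -0.08 (SE 0.06, adjusted p = 0.434, limma) and -0.05 without Middle replicate 1. The constitutive members thus did not share one direction.

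Without Middle replicate 1 the 3 members named for their unadjusted p stayed on their sides, with log2 fold changes of 0.23 for Hspa8, 0.20 for Hsp90ab1 and -0.21 for Hspa1l and adjusted p-values of 0.220, 0.247 and 0.272 (limma). After removal of each library's GC trend the values were 0.31, 0.24 and -0.31, and the adjusted p-values 0.152, 0.171 and 0.158 (limma). Ribosomal protein genes, taken as a sign of library quality, also lay apart between the groups: 82 of 82 tested genes were above 0 (median log2 fold change 0.25), and they summed to 7590 to 8086 RPKM in Control and 8352 to 10682 in Middle. Of 30 tested mitochondrially encoded genes 26 were above 0 (median 0.43), with sums of 9360 to 11809 RPKM in Control and 13154 to 17853 in Middle. One of them, mt-Nd3, was among the 8 genes that passed, and fell from 115 ± 5.01 to 51.5 ± 9.49 RPKM (SD, n = 3 each; adjusted p = 0.0267, limma). The part of these differences in the values of Hspa8 and Hsp90ab1 was not tested.

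Some cell type markers lay apart as well, to be read beside all tested genes, of which 55.9% lay above 0. Of 10 round spermatid markers 7 lay below 0 (median -0.25), and their sum was 839 to 884 RPKM in Control and 759 to 801 in Middle. Of 10 elongating spermatid markers 8 lay below 0 (median -0.16), with overlapping sums. An unadjusted p under 0.05 (limma) was reached by 4 of the 10 round and 5 of the 10 elongating spermatid markers. All of these were lower, where 9.02% of all tested genes reached it in that direction. Sertoli and spermatogonium markers reached it for 3 of 8 and 2 of 5 tested genes, all higher, where 11.7% of all tested genes did. Among spermatocyte markers 2 reached it in each direction. All 8 tested Sertoli markers lay above 0 (median 0.16; summed 214 to 219 RPKM in Control and 230 to 241 in Middle), as did all 5 tested of 10 spermatogonium markers (median 0.21). The spermatogonium sums overlapped, at 35.9 to 42.1 RPKM in Control and 42.0 to 53.2 in Middle. The 10 spermatocyte markers had 4 above 0 and 6 below (median -0.05). Their sums did not overlap, at 2136 to 2171 RPKM in Control and 2082 to 2110 in Middle. Most of each sum came from Ldhc, with Control libraries at 1518.08 to 1554.44 RPKM and Middle libraries at 1457.35 to 1517.66 (log2 fold change -0.04). The gap between the sums thus rests largely on Ldhc, which was named after its values were seen. Taken singly, 2 spermatocyte markers were higher without overlap and 3 lower, Ldhc among the latter, so the list had no shared direction. Of 6 peritubular myoid markers 5 lay above 0 (median 0.19), with overlapping sums. No list had a defining marker at 0 in all libraries, 2 epididymis markers (Lcn8 and Lcn5) were not among the genes analysed here, and none of these markers passed the test. The part of cell makeup in the lower Hspa1l and the higher Hspa8 and Hsp90ab1 was not tested.

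Stress-inducible and germ cell members were then set against each other within each library, as the difference of their mean log2(RPKM + 1). This difference was -4.02, -3.98 and -3.94 in Control and -3.82, -3.92 and -3.86 in Middle, so each Middle library lay nearer to 0. The group means were 0.11 apart, with an SD of 0.04 in Control and 0.05 in Middle (n = 3 each), and no test was made because the members were chosen with earlier results known. Middle minus Control was -0.16 for the germ cell mean and -0.05 for the stress-inducible mean. Both were smaller without Middle replicate 1, at -0.09 and -0.0033, and the difference between them was then 0.09. Of the germ cell members, Hspa1l was then at -0.21, Hspa4l at -0.05 and Hspa2 at -0.02, so the germ cell mean rested mostly on Hspa1l. The constitutive members minus the germ cell members gave -1.26, -1.12 and -1.19 in Control and -0.67, -1.003 and -0.93 in Middle, a difference between groups of 0.32, or 0.22 without Middle replicate 1.

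Ratios between related members within a library do not depend on the scaling of libraries. The 5 ratios below were chosen after the values of the members were seen and carry no test. Hsp90ab1 to Hsp90aa1, the beta against the alpha form of HSP90, was 0.22, 0.25 and 0.26 in Control and 0.40, 0.28 and 0.27 in Middle. The groups did not overlap, yet Middle replicates 2 and 3 stood close to the top of Control, and Middle replicate 1 alone made the wide gap. Hspa8 to Hspa2 was 0.187, 0.183 and 0.198 in Control and 0.283, 0.215 and 0.234 in Middle, again without overlap.

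The ratio Hspa4 to Hspa4l was 0.87, 0.89 and 0.83 in Control and 1.03, 0.88 and 0.85 in Middle, with the groups overlapping apart from Middle replicate 1. Hspa1l stood 95.3, 81.4 and 76.4 times above the sum of Hspa1a and Hspa1b in Control and 69.3, 75.7 and 68.0 times in Middle. Every Middle value lay below every Control value, though Control replicate 3 and Middle replicate 2 were close. Hspa2 to Hspa1l, both germ cell members, was 1.15, 1.42 and 1.26 in Control and 1.40, 1.40 and 1.52 in Middle, and the groups overlapped through Control replicate 2.

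**Figure D3:**
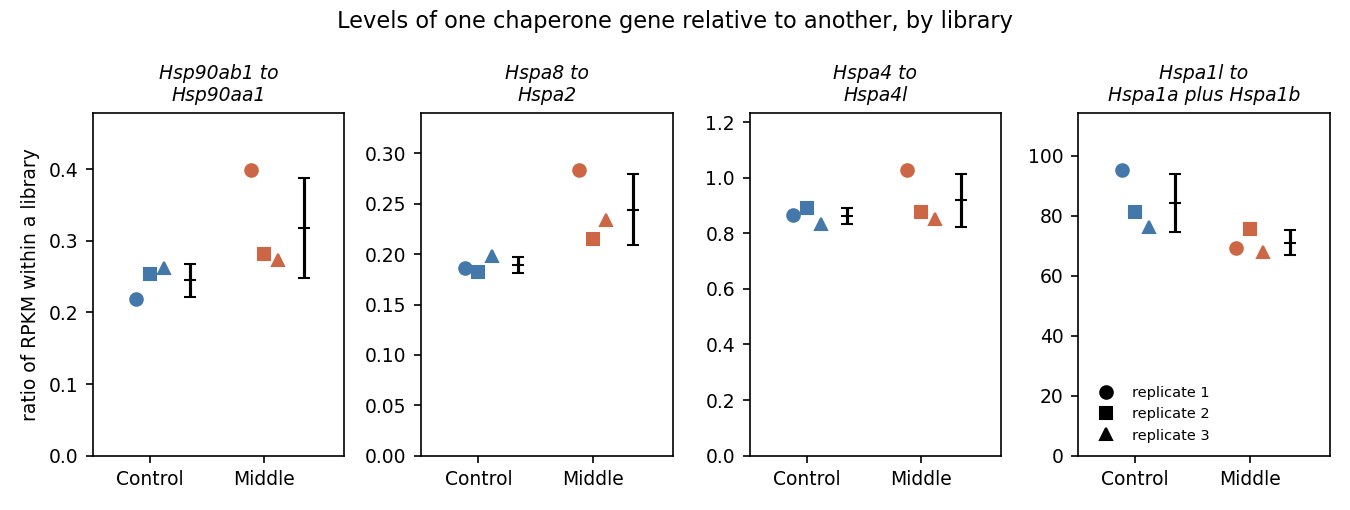
Ratios of RPKM between related genes in each library, Control in blue and Middle in orange, with marker shapes for replicates and black bars for the mean ± SD of each group (n = 3). Middle replicate 1 is the highest point for the first 3 ratios, and Hspa1l to the sum of Hspa1a and Hspa1b is between 68.0 and 95.3 in every library.

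The other genes of the chaperone system were taken by list, with levels as mean ± SD over 3 libraries a group. No gene of these 9 lists passed the test over all genes. Each list is to be read against all tested genes, of which 55.9% were above 0 and 20.7% had an unadjusted p under 0.05. Heat shock factors and their binding proteins had 4 of 7 tested genes above 0 (median log2 fold change 0.03), and 1 had an unadjusted p under 0.05. Hsf1, the stress factor that acts on Hspa1a and Hspa1b, was low at 1.61 ± 0.19 RPKM in Control against 1.86 ± 0.27 in Middle (adjusted p = 0.443, limma). Hsbp1l1 was at 10.4 ± 0.06 and 9.21 ± 0.42, and Hsf2bp, which takes part in meiotic recombination, at 17.8 ± 1.02 and 19.8 ± 0.97. Known HSF1 targets outside the members had 8 of 11 above 0 (median 0.09). The groups did not overlap for 4 of the 11, all higher, where 17.9% of all tested genes were higher without overlap. An unadjusted p under 0.05 was reached by 3, also all higher, where 11.7% of all tested genes reached it in that direction. These 3 were Stip1, Bag3 and Hspb1, and the lists share genes, so each is counted again below. Stip1 is also among the HSP90 co-chaperones and HSP70 co-factors, Bag3 among the HSP70 co-factors and Hspb1 among the small heat shock proteins. The small heat shock protein gene Hspb1 was at 6.69 ± 0.84 RPKM in Control against 8.89 ± 1.66 in Middle. Bag3, a partner of HSP70 in protein disposal, was at 25.4 ± 1.79 and 29.5 ± 1.86.

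Co-chaperones of HSP90 had 16 of 24 tested genes above 0 (median 0.08). An unadjusted p under 0.05 was reached by 5 of the 24, all higher. Of all tested genes 11.7% reached it in that direction and 20.7% in either. Stip1, which joins HSP70 to HSP90 to hand over clients, was at 123, 144 and 135 RPKM in Control and 171, 147 and 167 in Middle, without overlap (log2 fold change 0.27, adjusted p = 0.181, limma). Fkbp8 was at 42.0 ± 1.9996 RPKM in Control against 48.2 ± 2.90 in Middle, and the phosphatase gene Ppp5c at 12.6 ± 0.96 and 14.7 ± 1.23. Exchange factors and co-factors of HSP70 had 8 of 12 above 0 (median 0.12), and 4 had an unadjusted p under 0.05, 3 higher and 1 lower, beside 20.7% of all tested genes. Bag5 lay on the other side, at 304, 275 and 284 RPKM in Control and 199, 262 and 241 in Middle (log2 fold change -0.30, adjusted p = 0.187, limma), while Sgta was at 30.6 ± 0.67 and 34.8 ± 2.18.

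Other HSP70 and HSP90 proteins had 5 of 9 above 0 (median 0.01), and 1 had an unadjusted p under 0.05. Trap1, the HSP90 of mitochondria, was at 54.0 ± 1.78 RPKM in Control against 64.2 ± 5.83 in Middle without overlap. Hsp90b1, the HSP90 of the endoplasmic reticulum, was at 257 ± 7.15 and 231 ± 27.9, and Hspa13 at 1.53 ± 0.18 and 1.17 ± 0.29. Small heat shock proteins had 3 of 6 tested out of 11 above 0 (median 0.02), and 1 had an unadjusted p under 0.05. Hspb6 was at 5.41 ± 0.65 and 6.38 ± 0.51 RPKM and the testis gene Hspb9 at 302 ± 23.9 and 276 ± 23.6.

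Chaperonins, the ring-shaped chaperones, had the highest median of the 9 chaperone and handling lists (0.14), and 10 of 12 genes were above 0, where 55.9% of all tested genes were. Hspd1 and Hspe1 of this list are also counted among the HSF1 targets. Cct2 was at 157, 175 and 170 RPKM in Control and 231, 188 and 214 in Middle (log2 fold change 0.33, adjusted p = 0.178, limma). Cct3 was at 64.95 ± 4.31 and 77.0 ± 5.11 RPKM and Cct8 at 45.9 ± 2.27 and 55.5 ± 5.66. The groups did not overlap for 7 of the 12, all higher, where 17.9% of all tested genes were higher without overlap. An unadjusted p under 0.05 was reached by 4 of the 12, also all higher, where 11.7% of all tested genes reached it in that direction. 

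Partners of HSPA2 in germ cells had 4 of 8 above 0 (median -0.05), and 4 had an unadjusted p under 0.05, 2 in each direction. HSPA2 acts on CDK1 with cyclin B at the exit from meiotic prophase, and in spermatids it is a partner of the transition proteins. Ccnb1, the cyclin B1 gene, was at 22.9 ± 1.36 RPKM in Control against 30.5 ± 4.27 in Middle, and Cdk1 at 7.68 ± 0.07 and 8.87 ± 0.66, both without overlap. Tnp1, a transition protein of condensing spermatids, was at 4685 ± 633 and 3823 ± 193, with overlap.

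Immediate early genes, which rise within minutes of tissue handling, had 6 of 10 tested out of 24 above 0 (median 0.09). An unadjusted p under 0.05 was reached by 2, each higher, where 11.7% of all tested genes reached it in that direction. Jund was at 47.9 ± 2.68 RPKM in Control against 58.2 ± 7.005 in Middle, Klf2 at 3.35 ± 0.80 and 4.69 ± 0.83, and Klf4 at 25.6 ± 0.84 and 23.2 ± 0.81. Fos was at 0.19 ± 0.10 and 0.17 ± 0.03 RPKM and Atf3 at 0.13 ± 0.10 and 0.09 ± 0.01, low in both groups like Hspa1a and Hspa1b. Fos and Atf3 were named after their values were seen.

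**Figure D4:**
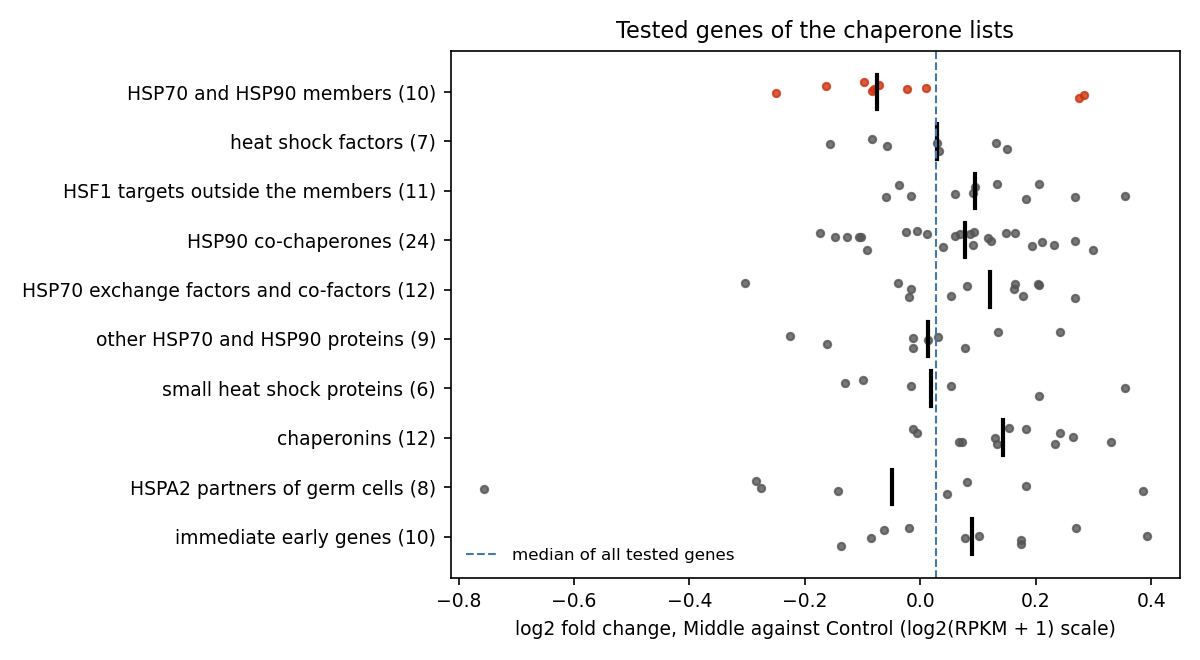
Log2 fold change of every tested gene of the members and of 9 chaperone and handling lists, with the number of tested genes in brackets, black bars for list medians and a dashed line for the median of all tested genes (0.03). The members (red) fall into Hspa8 and Hsp90ab1 at 0.28 and 0.27 and 8 genes at or below 0.01.

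Across the 6 libraries the members did not vary as one group. Hspa8 and Hsp90ab1 had a Pearson correlation of 0.91 with each other over the 6 libraries, and -0.90 and -0.96 with Hspa1l. This was not particular to Hspa1l or to germ cell members. With Hspa4 they were at -0.91 and -0.83, and with Hsph1 at -0.71 and -0.92. Only with Hspa1a were they above 0, at 0.39 and 0.23. Hspa2, Hspa4l and Hsp90aa1 correlated at 0.85 to 0.90 among themselves. These are descriptions over 6 libraries that share the group difference and the scaling. Middle replicate 1 was the lowest library for Hspa2, Hspa4l and Hsp90aa1, at -0.18, -0.38 and -0.29 in log2 from their Control means. Their other libraries lay between -0.12 and 0.07, so the correlations among these genes rest largely on Middle replicate 1. Among all tested genes the patterns most like Hspa2 were those of Usp9x (r = 0.996), Pik3ca (0.994) and Smim13 (0.992), with 517 genes at 0.9 or more. For Hsp90aa1 they were Tpte (0.991), Marf1 (0.989) and Dnajc10 (0.986), with 239 genes at 0.9 or more. For Hspa1a they were Cks1b (0.991), Prorsd1 (0.989) and Rpa3 (0.988), with 70 genes at 0.9 or more. Hspa1a was at -0.41 with Hspa1b, and the split of reads between these near-identical genes is uncertain. Middle replicate 1 was also the lowest library for each of the genes named as most like Hspa2 and Hsp90aa1.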

How the data were processed

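Whole-testis RNA-seq of 3 Control and 3 Middle libraries was analysed. The submitters' processing notes name fastp 0.23.0 and the build GRCm39. For the aligner, counting program and strandedness, the sources used here give nothing. The authors deposited RPKM values and gene lengths. Value times length was a whole multiple of 1 step per library (tolerance 0.001), which gave the reads. With log2(RPKM + 1) and genes of a mean of at least 1 RPKM in a group (15040 kept, 23675 left out), limma 3.58.1 (R 4.3.3) with a variance trend compared Middle with Control, two-sided, threshold 0.05; fold changes understate low genes. The fit was also run on simulated data with the same spread for every gene, no GC trend and no outlying library. It returned the changes put in, which were larger than those of any member, and its false calls fell on genes of few reads. Since that setting differs from these libraries, it cannot show how the fit deals with the GC trend, Middle replicate 1 or small changes. Libraries of a group differed beyond sampling noise, with 8.31 to 50.7 as chi-square over degrees of freedom, and each was kept. Members, roles and lists were chosen with earlier results of these data known. Named genes are the members, their copies and overlapping genes, and those most like Hspa2, Hspa1a or Hsp90aa1. Per list, the 3 with the smallest p are named. Others given with values are said to be chosen afterwards. Copies, GC content and upstream windows came from GENCODE M21 and RefSeq by symbol. Alternatives were pseudocounts, filters, scalings, limma-voom on recovered reads, a replicate block, leaving out libraries, GC trend removal, sample weights and, chosen after seeing the data, added copies, GC removal without Middle replicate 1 and role group means without 1 library.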

Additional observations from a re-analysis of the deposited data

How the results depend on the processing

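Hspa1l, Hspa2, Hspa4, Hspa4l, Hspa8, Hsp90ab1 and Hsph1 kept their direction, and no member passed the threshold, under any alternative run. Their lowest adjusted p was 0.0626, for Hspa8 with sample weights (limma). The log2 fold change of Hspa8 ranged from 0.23 to 0.34, of Hsp90ab1 from 0.18 to 0.33 and of Hspa1l from -0.31 to -0.19. Without Middle replicate 1 it was -0.05 for Hspa4l, Hsph1 and Hspa4 and -0.02 for Hspa2. With the GC trend removed Hspa4l was at -0.05, Hspa2 at -0.13 and Hsp90aa1 at -0.04. With that and without Middle replicate 1, Hspa4l was at -0.014, its value nearest to 0, and Hspa2 at -0.052. Hspa1a, at 0.01 with all libraries, turned to -0.0035 with median-of-ratios and -0.0049 with upper-quartile scaling, -0.084 with the GC trend removed, -0.067 with that and without Middle replicate 1, and -0.0044 with copies added; leaving out 1 library gave -0.054 to 0.078. Hspa1b, at -0.02 with all libraries, was -0.11 with the GC trend removed and ranged from -0.091 to 0.026 without 1 library, and Hsp90aa1 from -0.147 to 0.019; Hsp90aa1 was 0.017 with sample weights and 0.027 with the GC trend removed and without Middle replicate 1. The cause was not tested. The difference between stress-inducible and germ cell members was 0.067 as a log2 ratio of summed RPKM, where Hsp90aa1 makes up most of the sum, against 0.11. It was 0.155 with Hspa1a and Hspa1b as the only stress-inducible members, 0.125 without Hsp90aa1 and 0.084 with the GC trend removed. Over all genes 8 passed, against 0 without a filter (4204 at an unadjusted p under 0.05), 54 with sample weights and 0 to 3 without 1 library (3 when Control replicate 1 was left out, 1 for Middle replicate 1 and 0 for each of the others). With the replicate block 0 passed (limma; 2267 at an unadjusted p under 0.05, and 10 by limma-voom without it). Same-numbered libraries did not deviate together (correlations -0.15, -0.12 and 0.005), so the numbers were not taken as pairs. Hspa1a and Hspa1b, with 273 to 452 reads, are the members whose precision depth limits most.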
